A study of Homo sapiens with 6 samples.

Results

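Histone genes were followed in polyadenylated RNA of human gastric cancer cells labelled as overexpressing NINJ1 or as negative control. The genes were the 26 rows named HIST1 to HIST4 with at least 10 counts in at least 2 of the 6 libraries, leaving out pseudogene names, and 6 replication-independent histone genes kept as comparators (H2AFZ, H2AFX, H2AFV, H3F3A, H3F3B and H1F0). These are 32 of 51103 annotated genes. Of 90 rows with a HIST name, 15 carried pseudogene names and 49 had too few counts, 19 of them with 0 counts in every library. The members were 12 H2B, 5 H4, 4 H3 and 4 H2A genes and 1 linker histone gene, HIST1H1C. They were selected on their read counts in these same 6 libraries, so their levels are a description.

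AGS was derived from a gastric adenocarcinoma and HGC-27 from an undifferentiated carcinoma of the stomach. Cells were transduced to overexpress NINJ1, or carried the negative control, and were lysed for RNA after 48 hours. Each line had 2 libraries labelled NINJ1 and 1 labelled control. Nothing in the labels says that the replicates were separate cultures, so p-values measure the spread between these libraries, which may be technical. NINJ1 (ninjurin-1) is an adhesion molecule of the cell surface, best known for breaking open the plasma membrane of dying cells.

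Libraries held 12619684 to 18175697 counts, and 4 facts about them bear on every result. The lines of both replicate 2 libraries labelled NINJ1 differ between title and file name, and the file names were followed here. Pearson correlations of log2 CPM (counts per 1000000 counts of the library, with 1 added) used 15308 genes with at least 60 counts in all. AGS replicate 2 had 0.994 with AGS replicate 1, and 0.943 and 0.939 with the HGC-27 libraries labelled NINJ1. HGC-27 replicate 2 had 0.993 with HGC-27 replicate 1 and 0.9375 with AGS replicate 1, all labelled NINJ1. Each replicate 2 library thus correlated best with replicate 1 labelled NINJ1 of its file-name line. The HGC-27 control stood apart: genes over 60% GC held 2.31% of its counts, against 9.25% to 11.3% in the other 5 libraries, and 19371 genes had a count there, against 22839 to 23396. Mitochondrially encoded genes held 3.19% and 2.78% of counts in the AGS libraries labelled NINJ1 and 5.00% in the AGS control, and 3.75% and 3.39% against 6.498% in HGC-27, so all 4 libraries labelled NINJ1 lay below both controls, as several histone genes did; the part of this in the histone values was not tested. In the values per gene that follow, CPM are scaled by TMM, a library factor. NINJ1 itself had 19.5 and 15.9 CPM in the AGS libraries labelled NINJ1 and 28.4 in the AGS control, which goes against those labels (log2 change -0.68, SE 0.19, edgeR quasi-likelihood adjusted p = 0.0148; 0.260 without AGS replicate 2 labelled NINJ1 and 0.136 by DESeq2). In HGC-27 NINJ1 had 17.2 and 19.1 CPM in the libraries labelled NINJ1 and 4.89 in the control (log2 change 1.89, SE 0.24, adjusted p = 3.22e-08), and with a correction for the GC content of transcripts the log2 change was 0.58 (adjusted p = 0.0333). Of markers of other cells, the 4 leukocyte genes summed to 0 to 5 counts per library. The epithelial genes KRT8 and KRT18 held nearly all of 7057 to 17269 epithelial marker counts per library. CDH1, which encodes E-cadherin, had 3 and 0 counts in the AGS libraries labelled NINJ1 and 4 in the AGS control, and 20 and 18 against 51 in HGC-27.

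Replication-dependent histone genes sit in clusters, are transcribed mostly in S phase, and make messages that end in a conserved stem-loop instead of a poly(A) tail. The stem-loop binding protein SLBP and the U7 small nuclear ribonucleoprotein direct the cut just downstream of it. A polyadenylated message from such a gene arises when transcripts run on to a poly(A) signal further downstream, which is known in differentiated cells and for some genes in dividing cells. Replication-independent histone genes such as H3F3A and H3F3B have introns and ordinary poly(A) signals.

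The stem-loop was found downstream of the stop codon of 19 of the 26 clustered members and of 1 of the 6 comparators, H2AFX. The motif searched was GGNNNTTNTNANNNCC on the transcript strand, with all 6 stem pairs required; it occurred beyond the stop codon of 50 of 19893 protein-coding genes (0.251%), and 32 of these 50 carry a histone name. The sites of the genes on which the results turn are given 5′ to 3′ with the 16-base stem-loop in capitals and 5 bases on each side in lower case.
HIST2H2BE: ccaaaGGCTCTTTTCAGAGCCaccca
HIST1H2AC: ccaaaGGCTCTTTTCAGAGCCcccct
HIST2H2BF: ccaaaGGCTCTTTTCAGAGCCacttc
HIST3H2A: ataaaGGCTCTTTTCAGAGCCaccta
HIST1H4I: aaaaaGGCCCTTTTTAGGGCCcctaa
HIST1H2BD: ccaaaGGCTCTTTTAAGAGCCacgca
H2AFX: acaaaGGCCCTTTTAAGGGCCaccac
In GRCh38 the stem-loop of HIST2H2BE lies at chr1:149886188-149886203 (minus strand), that of HIST1H2AC at chr6:26124669-26124684 (plus strand) and that of HIST2H2BF at chr1:149811885-149811900 (minus strand). The stem-loop of HIST3H2A lies at chr1:228457369-228457384 (minus strand), that of HIST1H4I at chr6:27139654-27139669 (plus strand) and that of HIST1H2BD at chr6:26158587-26158602 (plus strand). The stem-loop of H2AFX lies at chr11:119094898-119094913 (minus strand). All are exonic, between the stop codon and the annotated transcript end. The form shown for HIST2H2BE occurred in 11 of the 19 members. The stems of HIST1H4I, HIST2H4A and HIST2H4B shared another loop and stem, and HIST1H2BD, HIST3H3 and HIST1H3G yet another form.

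Most members had annotated exon far beyond the stem-loop. In HIST2H2BE the stem-loop began 56 bases past the stop codon and 1729 annotated bases followed it. HIST1H2AC had 1128 and HIST2H2BF 1479 annotated bases after the stem-loop. Over 1000 bases were annotated beyond the stop codon in 13 of the 24 protein-coding members, and in 4 of 46 protein-coding clustered genes under the count minimum. At the other end, HIST1H1C, HIST1H2BK and HIST1H3B had no base annotated beyond the stop codon, against 31 of the 46. A poly(A) signal (AATAAA or ATTAAA in the last 40 bases) was present in 17 of 26 members, 9 of 49 genes under the minimum and 6 of 6 comparators. Median exon length was 1902.5 bases in members and 411 in genes under the minimum. A longer annotated exon also collects more counts, so the count minimum and the annotated length are not independent.

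**Figure D1:**
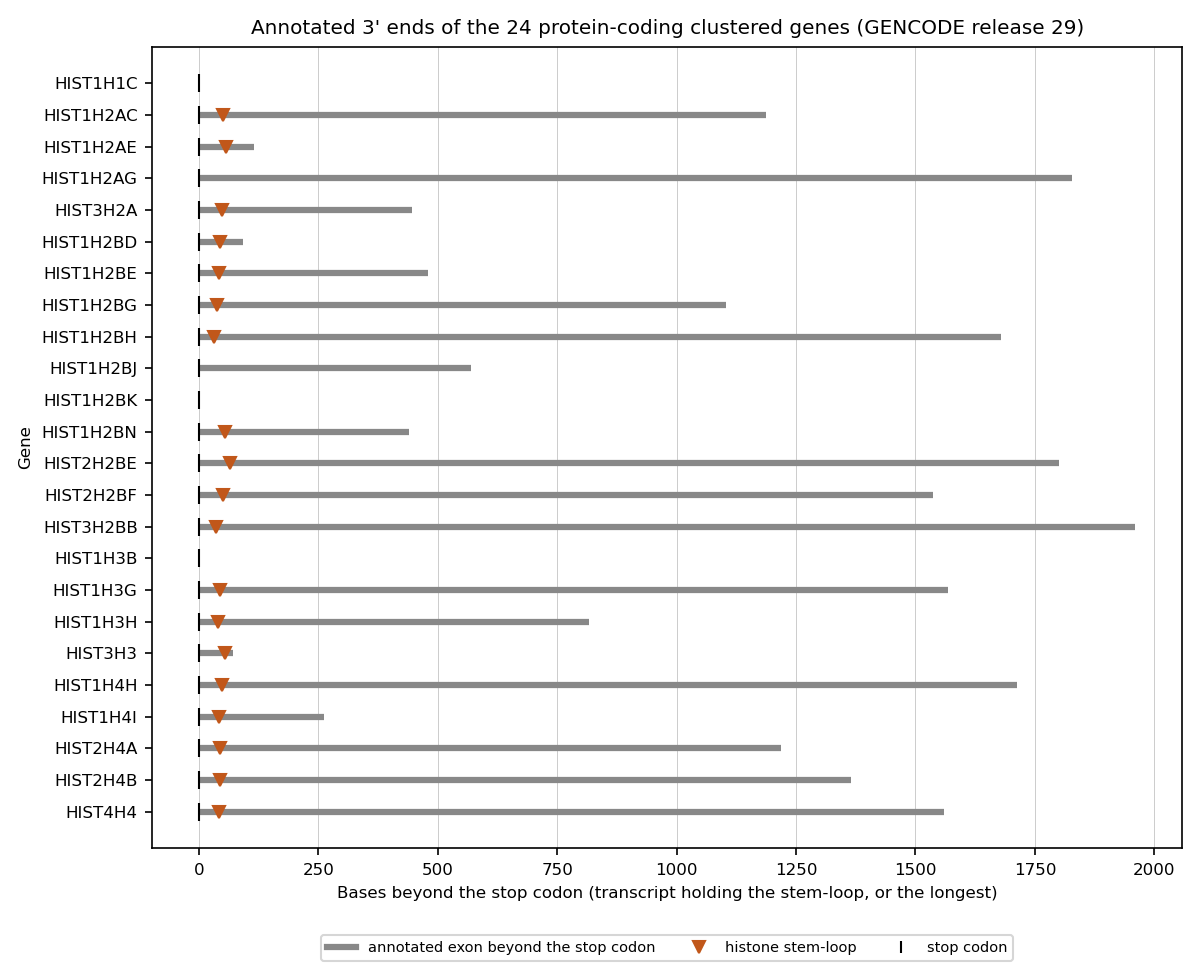
Annotated exon beyond the stop codon in the 24 protein-coding clustered genes, in bases from the stop codon (bar: exon; triangle: stem-loop; tick: stop codon). Stem-loops sit near the stop codon, and in HIST2H2BE 1729 annotated bases follow it; HIST1H1C, HIST1H2BK and HIST1H3B have no annotated base there.

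The 2 remaining members, HIST2H2BC and HIST2H2BD, passed by name but are annotated as transcribed unprocessed pseudogenes. They overlap each other in part on opposite strands, and no strand setting is stated, so reads from the shared stretch cannot be told apart. HIST2H4A and HIST2H4B are near-identical copies: 5.1% and 2.9% of their 100-base windows are unique among annotated transcripts, so counts split between them are uncertain. HIST2H2BF shares exon with FCGR1A on the opposite strand.

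Promoters were available for 23 members and 5 comparators (RefSeq, GRCh38.p14). The octamer ATTTGCAT, searched on both strands, is the site for the POU factor OCT1 known from H2B promoters. It occurred in 7 of 10 H2B members and 3 of the other 13 members, and in 1.80% of 27305 promoters. CCAAT occurred in 19 of 23 members (35.7% of all promoters) and TATAAA in 12 of 23 (11.95% of all). The promoters of the 3 genes with the smallest p over both lines are given as 300 bases 5′ to 3′ on the gene's strand, 250 before and 50 from the start, with these 3 motifs in capitals on either strand.
HIST2H2BE: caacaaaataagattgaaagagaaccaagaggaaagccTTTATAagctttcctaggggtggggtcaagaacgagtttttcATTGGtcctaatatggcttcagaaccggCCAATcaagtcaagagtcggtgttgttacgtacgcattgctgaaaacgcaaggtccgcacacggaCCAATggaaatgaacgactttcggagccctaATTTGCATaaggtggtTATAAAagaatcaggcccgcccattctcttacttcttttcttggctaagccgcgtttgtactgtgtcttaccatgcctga
HIST1H2AC: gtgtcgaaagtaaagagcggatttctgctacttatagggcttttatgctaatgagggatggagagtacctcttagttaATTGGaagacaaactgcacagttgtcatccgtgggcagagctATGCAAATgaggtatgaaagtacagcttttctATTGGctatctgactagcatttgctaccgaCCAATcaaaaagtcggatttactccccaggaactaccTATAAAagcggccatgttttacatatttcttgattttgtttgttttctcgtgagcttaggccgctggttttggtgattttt
HIST2H2BF: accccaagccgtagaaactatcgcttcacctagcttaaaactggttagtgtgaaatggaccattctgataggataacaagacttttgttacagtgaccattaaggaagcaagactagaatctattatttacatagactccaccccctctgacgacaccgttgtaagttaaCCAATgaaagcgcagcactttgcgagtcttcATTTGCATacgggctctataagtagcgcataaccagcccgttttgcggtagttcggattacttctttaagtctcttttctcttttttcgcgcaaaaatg
They lie at chr1:149886633-149886932 (minus strand), chr6:26123922-26124221 (plus strand) and chr1:149812321-149812620 (minus strand) in GRCh38.p14. HIST2H2BE and HIST1H2AC hold all 3 motifs, and HIST2H2BF holds CCAAT and the octamer but not TATAAA. A match describes letters in these windows only.

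Clustered histone messages made up a small share of these libraries. The 26 members summed to 119 and 106 CPM (here unscaled) in the AGS libraries labelled NINJ1 (exact 95% interval 113 to 125 and 101 to 112) and to 212 (204 to 220) in the AGS control. In HGC-27 they summed to 62.1 and 65.4 CPM (58.1 to 66.3 and 61.4 to 69.6) in the libraries labelled NINJ1 and to 96.7 (92.2 to 101) in the control. The mean ratio of libraries labelled NINJ1 to control was 0.531 in AGS and 0.659 in HGC-27. On the deposited FPKM, a scale per gene length, these ratios were 0.546 and 0.756. Both scales use library totals, not TMM. With total counts alone the median log2 change of all tested genes was 0.0574 in AGS and 0.518 in HGC-27. The summed ratios, also those of the comparators and classes, are thus not comparable between lines or with the TMM values per gene. The intervals cover counting error only, and in bulk RNA fewer cells in a phase and less RNA per cell cannot be told apart. The 6 comparators summed to 1326 and 1299 CPM in the AGS libraries labelled NINJ1, against 1649 in the control, and to 970 and 982 in the HGC-27 libraries labelled NINJ1, against 1006. H2AFX and H1F0 were both called lower in AGS and were then left out, after their values were seen. The other 4 comparators summed to 993 and 1001 in the AGS libraries labelled NINJ1, against 990 in the AGS control. In HGC-27 these 4 summed to 808 and 806 against 930. The near-level sums in AGS follow in part from that choice, so they do not test whether comparators were stable there.

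By class, H2A members summed to 21.2 and 17.5 unscaled CPM in the AGS libraries labelled NINJ1 and to 52.2 in the AGS control, ratios of 0.405 and 0.336. H2B members gave ratios of 0.609 and 0.478 to the AGS control and H4 members 0.620 and 0.751. H3 members gave ratios of 0.955 and 0.963. In HGC-27, H4 members gave ratios of 0.401 and 0.450, which rest on 1 gene: without HIST1H4I, left out after its values were seen, the other 4 H4 members gave 0.794 and 0.964. H2A members gave 0.638 and 0.508, and H2B members 0.681 and 0.790. H3 members had ratios of 1.09 and 0.880 there. The 49 genes under the count minimum summed to 3.72 and 5.05 CPM in the AGS libraries labelled NINJ1 and to 12.6 in the AGS control.

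Per gene length, HIST1H1C (mean 16.8 FPKM over 6 libraries) and HIST1H2BK (16.5 FPKM) had the highest levels of the clustered members, followed by HIST3H2A (6.96 FPKM), HIST1H2BD (5.89 FPKM), HIST1H4I (5.37 FPKM) and HIST1H2AC (5.07 FPKM). The top 2 overlap in their range over libraries, 10.5 to 32.4 FPKM for HIST1H1C and 7.97 to 23.3 FPKM for HIST1H2BK. Both are annotated as coding sequence only (642 and 381 bases), which raises an FPKM when reads come from a longer message. HIST1H2BE (0.291 FPKM) had the lowest level of the 26. Comparators averaged 26.6 FPKM (H2AFX) to 103 FPKM (H1F0). Just inside the count minimum, HIST2H2BF had 3 and 6 counts in the AGS libraries labelled NINJ1 and 74 in the AGS control, and 4, 4 and 21 in HGC-27, so it passed through its 2 controls alone. HIST1H3B also passed in 2 libraries, with 6 and 13 counts against 16 in AGS and 8 and 5 against 6 in HGC-27. Just outside, 10 genes reached the minimum in 1 library, among them HIST1H3E with 3 and 0 counts in the AGS libraries labelled NINJ1 and 27 in the AGS control, and HIST2H3D with 0 and 0 against 13.

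**Figure D2:**
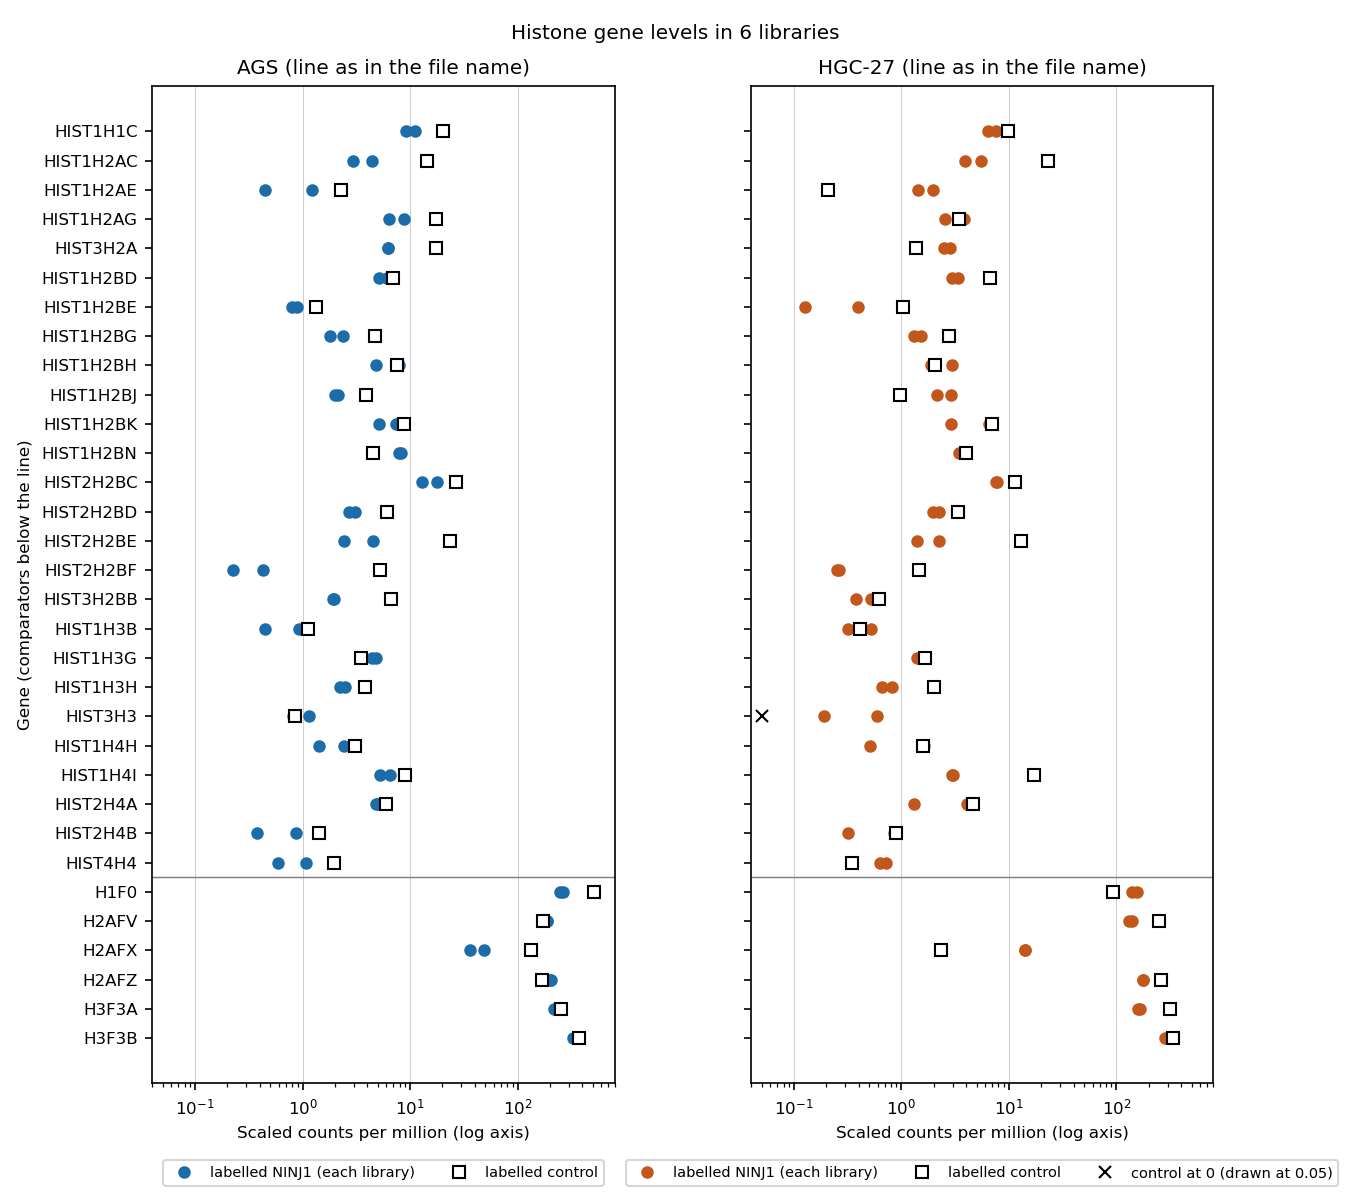
Scaled CPM (log axis) of each gene in AGS (left) and HGC-27 (right); filled points are the libraries labelled NINJ1, open squares the library labelled control, and a cross a control with 0 counts. HIST2H2BE, HIST1H2AC and HIST2H2BF lie left of the control in both lines; H2AFX lies left of it in AGS and right of it in HGC-27.

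In AGS, 10 of the 26 clustered members fell and 0 rose in the libraries labelled NINJ1 (edgeR quasi-likelihood, Benjamini-Hochberg adjusted p under 0.05), where 9.3% of all 17617 tested genes fell and 5.73% rose. At an unadjusted p under 0.05, 13 members were lower and 1 higher, with 15.5% and 13% of all genes. The median log2 change of the members was -0.84, against 0.00357 over all tested genes. Since the members were chosen with such values known, these counts are a description. HIST2H2BF is among the 10 and passed the count minimum through its 2 controls alone, so its fall is not independent of that minimum. DESeq2 called 3 of the 10 (HIST2H2BE, HIST1H2AC and HIST3H2A), with 4.84% of all genes lower. It gave 7 of the 26 members, HIST2H2BF among them, no adjusted p, so these were not judged. With lines as in the titles 0 members were called. In AGS the NINJ1 message was itself lower in the libraries labelled NINJ1.

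The core histone gene HIST2H2BE, an H2B gene known for making polyadenylated as well as stem-loop messages, had 4.48 and 2.44 CPM in the AGS libraries labelled NINJ1 and 23.4 in the AGS control. In HGC-27 it had 2.22 and 1.40 CPM in the libraries labelled NINJ1 and 12.9 in the control. All 4 libraries labelled NINJ1 lay below both controls, as they did for 8.44% of all tested genes. This separation does not depend on which line the disputed libraries belong to. It fell in AGS (log2 change -2.76, SE 0.27, edgeR adjusted p = 4.95e-09) and in HGC-27 (log2 change -2.84, SE 0.30, edgeR adjusted p = 7.27e-10).

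HIST1H2AC, an H2A gene of the large cluster on chromosome 6, had 4.40 and 2.95 CPM in the AGS libraries labelled NINJ1 and 14.5 in the AGS control, with 5.49 and 3.87 CPM against 23.0 in HGC-27. In each line both libraries labelled NINJ1 lay below the single control, as they did for 41.5% of all tested genes in AGS and 42.9% in HGC-27. It fell in AGS by 1.98 on the log2 scale (SE 0.27, edgeR adjusted p = 1.63e-06) and in HGC-27 by 2.30 (SE 0.25, edgeR adjusted p = 7.5e-10). HIST2H2BF, another H2B gene of the chromosome 1 cluster, had 0.224 and 0.431 CPM in the AGS libraries labelled NINJ1 and 5.22 in the AGS control, and 0.261 and 0.254 CPM against 1.45 in HGC-27. Both controls were its highest libraries, which its passing the count minimum required. It fell in AGS (log2 change -3.95, SE 0.60, edgeR adjusted p = 1.23e-05) and in HGC-27 (log2 change -2.45, SE 0.71, edgeR adjusted p = 0.00326).

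HIST3H2A and HIST3H2BB are head-to-head neighbours on chromosome 1, with 234 bases between their starts. HIST3H2A had 6.27 and 6.18 CPM in the AGS libraries labelled NINJ1 and 17.3 in the AGS control (log2 change -1.47, SE 0.25, edgeR adjusted p = 8.28e-05). HIST3H2BB had 1.94 and 1.94 CPM against 6.70 (log2 change -1.78, SE 0.41, edgeR adjusted p = 0.00265). Both genes of the pair were thus lower in AGS. Of 14 head-to-head histone pairs with starts within 500 bases, 3 had both genes among the members. In the pair HIST1H2BG and HIST1H2AE, HIST1H2BG had 1.79 and 2.37 CPM in the AGS libraries labelled NINJ1 and 4.73 in the AGS control (log2 change -1.18, SE 0.41, edgeR adjusted p = 0.0459), and HIST1H2AE had 0.448 and 1.22 CPM against 2.26 (log2 change -1.42, SE 0.61, edgeR adjusted p = 0.114). In the pair HIST1H2BJ and HIST1H2AG, HIST1H2AG had 8.80 and 6.40 CPM against 17.4 (log2 change -1.19, SE 0.26, edgeR adjusted p = 0.00127). HIST1H2BJ had 2.01 and 2.16 CPM against 3.88 (log2 change -0.89, SE 0.42, edgeR adjusted p = 0.155), which did not pass.

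HIST1H1C, which encodes the linker histone H1.2, had 9.18 and 11.1 CPM in the AGS libraries labelled NINJ1 and 20.5 in the AGS control (log2 change -1.01, SE 0.22, edgeR adjusted p = 0.00136). The pseudogenes HIST2H2BC and HIST2H2BD, whose exons overlap in part, also fell. HIST2H2BC had 18.0 and 13.0 CPM in the AGS libraries labelled NINJ1 and 26.9 in the AGS control (log2 change -0.80, SE 0.21, edgeR adjusted p = 0.00748), and HIST2H2BD had 2.69 and 3.09 CPM against 6.07 (log2 change -1.07, SE 0.35, edgeR adjusted p = 0.0344). Leaving out AGS replicate 1 or replicate 2 labelled NINJ1 ended the calls of HIST2H2BD (adjusted p = 0.166 and 0.108) and HIST1H2BG (0.229 and 0.0982), and leaving out AGS replicate 2 ended that of HIST2H2BC (0.234).

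The member with the largest positive value in AGS was HIST1H2BN, with 8.28 and 7.84 CPM in the AGS libraries labelled NINJ1 and 4.51 in the AGS control (log2 change 0.83, SE 0.30, edgeR adjusted p = 0.0599; 0.80 after GC correction, adjusted p = 0.0484). The GC correction adds offsets for the GC content of each gene's transcript to the fit. HIST1H2BN overlaps HIST1H2AK and HIST1H2AL, so its counts are uncertain. HIST1H3G (log2 change 0.38) and HIST3H3 (0.22) were the other members with positive values. The remaining members, HIST1H2BD, HIST1H2BE, HIST1H2BH, HIST1H2BK, HIST1H3B, HIST1H3H, HIST1H4H, HIST1H4I, HIST2H4A, HIST2H4B and HIST4H4, had values of -0.25 to -1.22, none past the threshold. After GC correction 10 members were lower and 1 higher in AGS, with 8.22% and 12.1% of all genes. Both AGS libraries labelled NINJ1 lay below the AGS control in 22 of 26 members, HIST2H2BF among them, as did 41.5% of all tested genes. They lay above it in 2 members, as did 41.3% of all genes.

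Among the comparators, H2AFX and H1F0 fell in AGS. H2AFX, the variant phosphorylated at DNA breaks, had 49.2 and 36.1 CPM in the AGS libraries labelled NINJ1 and 134 in the AGS control (log2 change -1.65, SE 0.16, edgeR adjusted p = 2.34e-09). H1F0, a linker histone known to accumulate in cells that leave the cycle, had 265 and 249 CPM against 515 (log2 change -1.002, SE 0.12, edgeR adjusted p = 3.46e-07). H2AFX is the comparator with a stem-loop and, like H1F0, lacks introns. The other 4 did not pass: log2 changes in AGS were 0.25 for H2AFZ, 0.12 for H2AFV, -0.19 for H3F3A and -0.18 for H3F3B, with SEs of 0.12 to 0.13.

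In HGC-27, 8 members (HIST2H2BF among them) fell and 4 rose in the libraries labelled NINJ1. Of all tested genes, 29.1% fell and 34% rose. The members' shares were thus near the background in the falling direction and below it in the rising one. Their median log2 change was -0.57, against 0.12 over all tested genes. With total counts as the only scaling the median of all genes was 0.518 and that of the members -0.175. The HGC-27 control held few counts from GC-rich genes, and the part of this in these values was not tested. A correction for GC content left 8 members lower and 1 higher, with 26.9% and 22.3% of all genes. DESeq2 called 4 lower (HIST1H2AC, HIST1H4I, HIST2H2BE and HIST2H2BF) and 1 higher (HIST1H2AE), with 23.6% and 26.7% of all genes, and total-count scaling also called those 4 lower. With lines as in the titles, 1 member was lower and 0 higher. Both HGC-27 libraries labelled NINJ1 lay below the HGC-27 control in 17 members, HIST2H2BF among them (42.9% of all genes). They lay above it in 5 members (47.9%).

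Beside HIST2H2BE, HIST1H2AC and HIST2H2BF, the H4 gene HIST1H4I fell most firmly in HGC-27. HIST1H4I had 3.00 and 2.98 CPM in the HGC-27 libraries labelled NINJ1 and 17.3 in the HGC-27 control (log2 change -2.53, SE 0.26, edgeR adjusted p = 2.23e-10). In AGS it had 5.30 and 6.47 CPM against 9.03, a change that did not pass (log2 change -0.62, SE 0.26, edgeR adjusted p = 0.112). The H2B gene HIST1H2BD had 2.94 and 3.37 CPM in the HGC-27 libraries labelled NINJ1 and 6.68 in the HGC-27 control (log2 change -1.08, SE 0.30, edgeR adjusted p = 0.00255; 0.0581 by DESeq2 and 0.0528 with total counts). The H3 gene HIST1H3H had 0.653 and 0.826 CPM against 2.00 (log2 change -1.42, SE 0.52, edgeR adjusted p = 0.0188), and its adjusted p was 0.0630 without HGC-27 replicate 1 labelled NINJ1, 0.140 by DESeq2 and 0.0903 with total counts.

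Smaller or less firm changes followed. HIST1H2BE had 0.392 and 0.127 CPM in the HGC-27 libraries labelled NINJ1 and 1.03 in the HGC-27 control (log2 change -1.97, SE 0.86, edgeR adjusted p = 0.0462), on 6 and 2 counts against 15. Without HGC-27 replicate 2 labelled NINJ1 its log2 change was -1.39 (adjusted p = 0.199), and without the AGS control -1.91 (adjusted p = 0.0618). HIST2H2BC had 7.71 and 7.62 CPM against 11.4 (log2 change -0.58, SE 0.23, edgeR adjusted p = 0.0307). Without the AGS control its adjusted p was 0.0513, and with the GC correction its log2 change was 0.000983.

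The 4 members that rose in HGC-27 rested on low values in the HGC-27 control. HIST1H2AE had 22 and 31 counts in the HGC-27 libraries labelled NINJ1 and 3 in the HGC-27 control, a ratio of scaled counts of 8.26 with an exact 95% counting interval of 2.68 to 41.3 (edgeR adjusted p = 0.00316, and 0.0950 with the GC correction). HIST3H3, an H3 gene best known from testis, had 9 and 3 counts against 0, at least 1.88-fold higher with 3 counts allowed for the control (edgeR adjusted p = 0.0375, and 0.155 without HGC-27 replicate 1 labelled NINJ1). HIST1H2BJ had 2.15 and 2.92 CPM in the HGC-27 libraries labelled NINJ1 and 0.964 in the HGC-27 control (log2 change 1.39, SE 0.51, edgeR adjusted p = 0.0187). This call was the one kept with the GC correction (log2 change 1.28, adjusted p = 0.0376), and it was lost without HGC-27 replicate 2 labelled NINJ1 (adjusted p = 0.0932). HIST3H2A had 2.81 and 2.48 CPM against 1.38 (log2 change 0.94, SE 0.39, edgeR adjusted p = 0.0376), and it turned to -0.45 with the GC correction; without HGC-27 replicate 1 labelled NINJ1 its adjusted p was 0.0939.

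**Figure D3:**
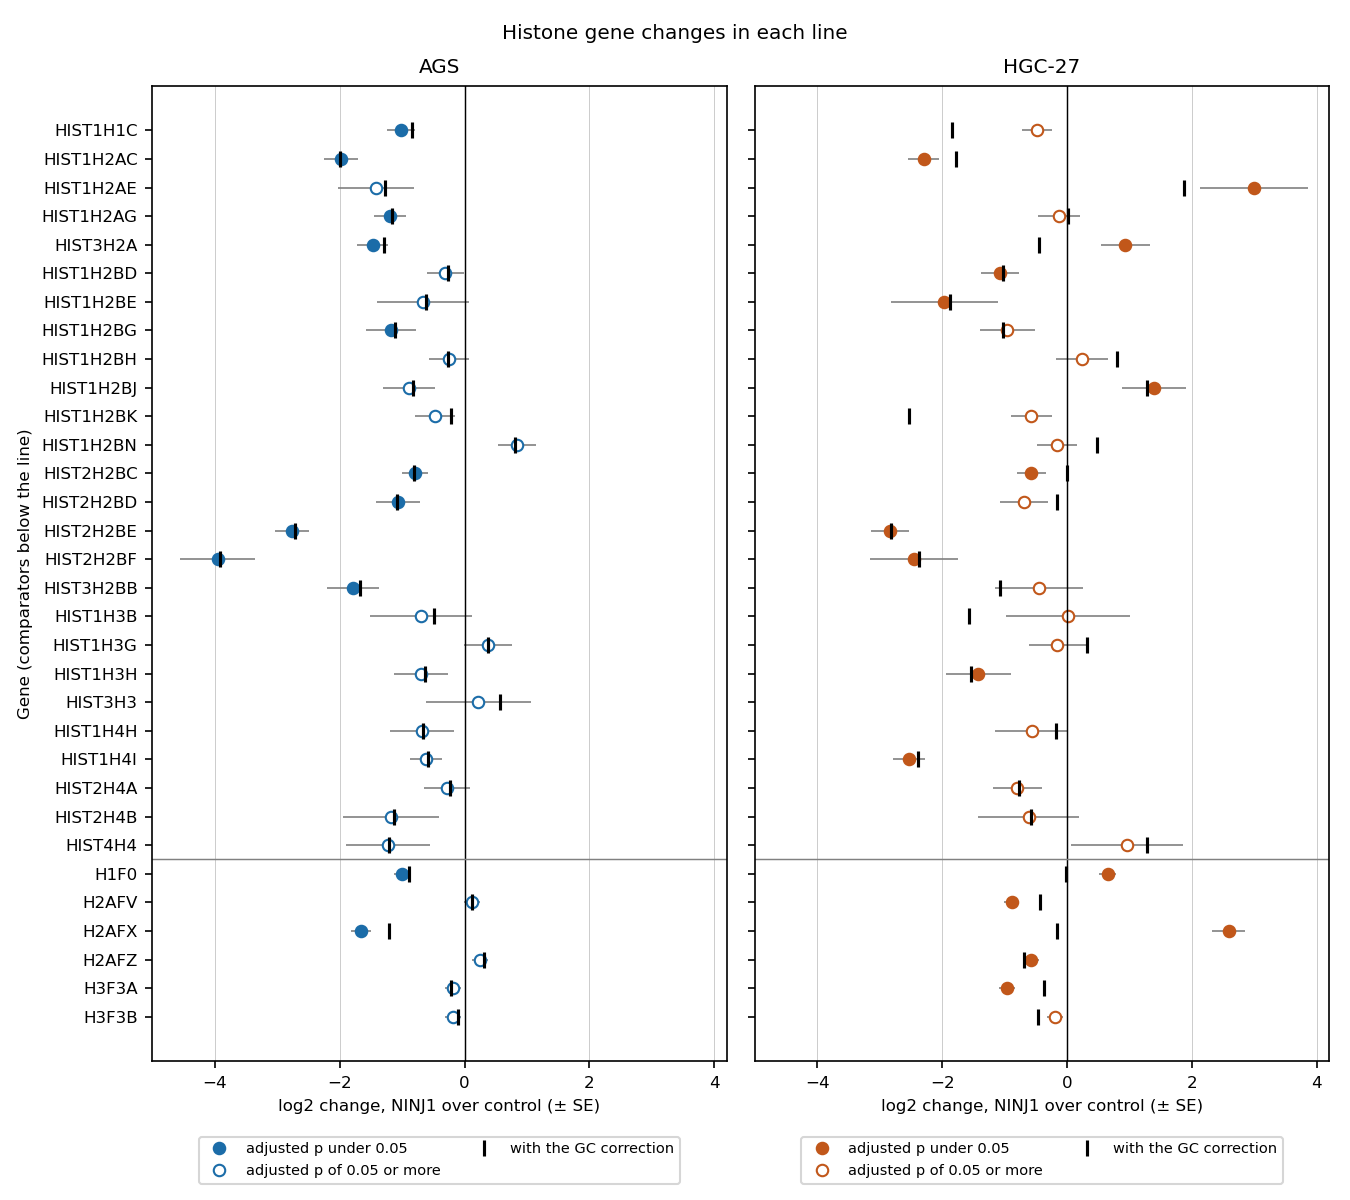
Log2 change of libraries labelled NINJ1 over the control (± SE) for each gene in AGS (left) and HGC-27 (right); filled points passed an adjusted p of 0.05 and black ticks are the values with a GC correction. HIST3H3 is left out in HGC-27, where its control had 0 counts. In AGS the ticks stay near the points, and in HGC-27 those of H2AFX, HIST3H2A, HIST1H1C, HIST1H2BK, HIST1H3B and HIST1H2AE move far.

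Genes of high GC content moved most under the correction. HIST1H2BK (61.2% GC) had 2.87 and 6.54 CPM in the HGC-27 libraries labelled NINJ1 and 7.02 in the control, which did not pass without the correction and did with it (log2 change -2.53, edgeR adjusted p = 8.73e-07). HIST1H1C (57.5% GC), with 6.40 and 7.62 CPM against 9.78, likewise had -1.84 with it (adjusted p = 3.82e-07). With the correction HIST2H2BE (-2.83), HIST1H2AC (-1.78) and HIST2H2BF (-2.37) still passed in HGC-27. The comparator H2AFX (66.4% GC) had 14.2 and 14.0 CPM in the HGC-27 libraries labelled NINJ1 and 2.34 in the HGC-27 control (log2 change 2.59, SE 0.27, edgeR adjusted p = 4.18e-10), and -0.15 with the correction (adjusted p = 0.678). H1F0 had 139 and 154 CPM against 93.4 (log2 change 0.65, SE 0.13, edgeR adjusted p = 8.99e-05) and -0.02 with the correction.

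**Figure D4:**
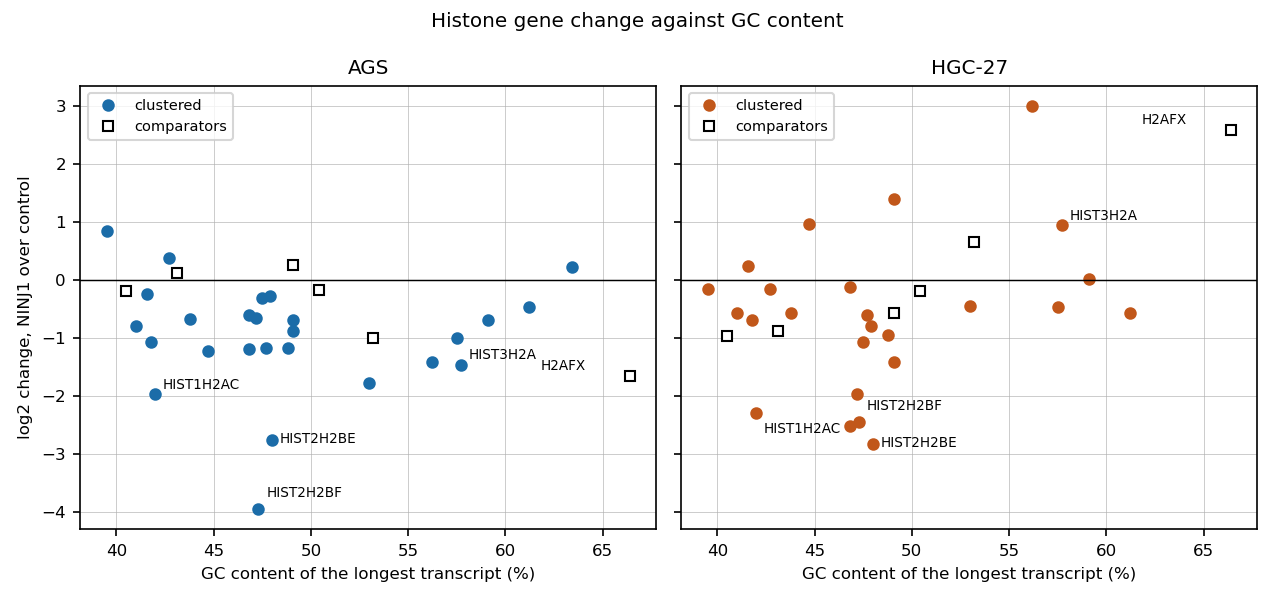
Log2 change of libraries labelled NINJ1 over the control against GC content of the longest transcript, in AGS (left) and HGC-27 (right), for the clustered genes (filled) and comparators (open squares); HIST3H3 is left out in HGC-27. In HGC-27 H2AFX, at 66.4% GC, lies at 2.59, and HIST2H2BE, at 48% GC, at -2.84.

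The variant genes with low GC content fell in HGC-27. H3F3A, which encodes H3.3, had 166 and 159 CPM in the HGC-27 libraries labelled NINJ1 and 317 in the HGC-27 control (log2 change -0.96, SE 0.12, edgeR adjusted p = 3.09e-08; -0.36 with the correction). H2AFV, an H2A.Z gene, had 140 and 132 CPM against 251 (log2 change -0.89, SE 0.12, edgeR adjusted p = 1.61e-07; -0.44 with the correction), and H2AFZ, the other H2A.Z gene, had 177 and 176 CPM against 262 (log2 change -0.57, SE 0.12, edgeR adjusted p = 0.000148; -0.69 with the correction). H3F3B, the other H3.3 gene, had 281 and 304 CPM in the HGC-27 libraries labelled NINJ1 and 334 in the control, which did not pass (log2 change -0.19, SE 0.12, edgeR adjusted p = 0.19).

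The contrast over both lines asked which members moved with the NINJ1 label whatever the line. By edgeR 0 of 26 members passed, as did 0% of all tested genes, while 10 members were lower and 0 higher at an unadjusted p under 0.05, with 7.67% and 5.14% of all genes. DESeq2 called 3 members lower (1.39% of all genes), and so did edgeR with the GC correction, where 1.13% of all genes were lower and 0.312% higher: in both cases these were HIST2H2BE, HIST1H2AC and HIST2H2BF, the last of which had to be highest in the controls to pass the count minimum. Without the correction HIST2H2BE had a log2 change of -2.79 (SE 0.35, adjusted p = 0.222), HIST1H2AC of -2.14 (SE 0.30, adjusted p = 0.222) and HIST2H2BF of -3.28 (SE 0.53, adjusted p = 0.249). With the correction their edgeR adjusted p-values were 0.0158, 0.0235 and 0.0436. Leaving out the HGC-27 control gave 10 members lower (9.62% of all genes), and leaving out the AGS control 6 lower and 4 higher (28.3% and 35.8% of all genes); each of these then compares with 1 control.

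All 4 libraries labelled NINJ1 lay below both controls in 9 of 26 members, as did 8.44% of all tested genes, whichever line the disputed libraries belong to. The 9 were HIST1H2AC, HIST1H2BD, HIST1H2BE, HIST1H2BG, HIST1H4I, HIST2H2BD, HIST2H2BE, HIST2H2BF and HIST2H4B. Of the 6 comparators, H3F3A alone had all 4 below both controls. HIST2H4B had 13 counts both in HGC-27 replicate 1 labelled NINJ1 and in the HGC-27 control (0.849 and 0.895 scaled CPM). HIST1H2BE had 12 counts in AGS replicate 1 labelled NINJ1 and 15 in the HGC-27 control (0.895 and 1.03 scaled CPM). HIST2H2BF passed the count minimum through the 2 controls alone, which fixed its order, and without it the count was 8 of 25. All 4 lay above both controls in 0 members, as did 10.8% of all genes. The difference between the lines' contrasts did not pass for HIST2H2BE (AGS minus HGC-27, 0.08, SE 0.42), HIST1H2AC (0.32, SE 0.38) or HIST2H2BF (-1.50, SE 1.03).

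The difference passed for 5 members: 1 was higher in AGS than in HGC-27 and 4 lower, where 23.9% and 30.2% of all genes were. The higher one was HIST1H4I (1.91, SE 0.38, edgeR adjusted p = 5.9e-05). The lower ones were HIST3H2A (-2.41, SE 0.46, edgeR adjusted p = 4.58e-05), HIST1H2AE (-4.41, SE 1.06, edgeR adjusted p = 0.00065), HIST1H2BJ (-2.28, SE 0.66, edgeR adjusted p = 0.004) and HIST1H2AG (-1.07, SE 0.42, edgeR adjusted p = 0.0332). All rest on 1 control library per line. With the GC correction the difference for HIST3H2A was -0.85 and did not pass (adjusted p = 0.152). That for HIST1H2AG did not pass without HGC-27 replicate 1 or AGS replicate 2 labelled NINJ1 (adjusted p = 0.138 and 0.124) or by DESeq2 (0.231), nor did that for HIST1H2BJ by DESeq2 (0.0870).

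Between the lines, the libraries labelled NINJ1 can be compared without either control. In these 13 of 26 members were higher in AGS than in HGC-27 and 0 lower, where 20.2% and 20% of all tested genes were. No member was lower at an unadjusted p under 0.05 either, and DESeq2 called 8 higher (13.7% of all genes). Without AGS replicate 2, 1 member was lower. With lines as in the titles 0 passed, since each group then holds 1 library of either file name. The median log2 difference was 0.86, against -0.00573 over all genes, and both AGS libraries lay above both HGC-27 libraries in 17 members (34.7% of all genes).

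The 10 with the smallest p included 5 H2B genes. HIST2H2BC differed by 1.01 (SE 0.19, edgeR adjusted p = 4.63e-05), HIST1H2BN by 1.17 (SE 0.25, adjusted p = 0.000229) and HIST1H2BH by 1.38 (SE 0.30, adjusted p = 0.000342). HIST1H2BH had 7.91 and 4.82 CPM in AGS and 1.89 and 2.98 CPM in HGC-27 libraries labelled NINJ1. HIST3H2BB differed by 2.08 (SE 0.49, adjusted p = 0.000766) and HIST1H2BD by 0.82 (SE 0.26, adjusted p = 0.0119). Among H2A genes HIST1H2AG differed by 1.26 (SE 0.25, adjusted p = 0.000115) and HIST3H2A by 1.23 (SE 0.25, adjusted p = 0.000172). Among H3 and H4 genes, HIST1H3G had 4.77 and 4.39 CPM in AGS against 1.57 and 1.40 in HGC-27, a difference of 1.62 (SE 0.33, adjusted p = 0.000178).

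HIST1H3H differed by 1.65 (SE 0.44, edgeR adjusted p = 0.0027) and HIST1H4I by 0.97 (SE 0.24, adjusted p = 0.00162). The other 3 that passed were HIST2H2BE (0.93), HIST2H4A (0.87) and HIST1H1C (0.53). HIST2H4A had 5.07 and 4.82 CPM in AGS and 1.31 and 4.06 in HGC-27, and counts shared with its copy are uncertain. These 3 calls and that of HIST1H2BD rest on single libraries labelled NINJ1: without AGS replicate 1, HIST2H2BE had 0.44 (adjusted p = 0.435), HIST2H4A 0.84 (0.0684) and HIST1H2BD 0.70 (0.123); without HGC-27 replicate 1, HIST2H4A had 0.28 (0.505) and HIST1H1C 0.41 (0.126). Without HGC-27 replicate 2, HIST2H2BE had 0.63 (adjusted p = 0.121), and without AGS replicate 2, HIST1H1C had 0.39 (0.312). HIST2H4A did not pass with the GC correction either (adjusted p = 0.0563), and DESeq2 called none of these 4, nor HIST1H3H (0.0682). Of the comparators, H2AFX (1.59), H1F0 (0.81), H2AFV (0.48) and H3F3A (0.47; adjusted p = 0.0515 without AGS replicate 2) were higher in AGS, while H2AFZ (0.19) and H3F3B (0.17) did not pass.

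Genes that act on histone messages were followed beside the members, from lists drawn up with earlier results known. Without the GC correction, the shares of all genes to set beside these counts are 5.73% higher and 9.3% lower in AGS, and 34% higher and 29.1% lower in HGC-27. Of 16 genes of histone message 3′ end formation, 2 rose and 0 fell in AGS. ZNF473, a protein of the U7 small nuclear ribonucleoprotein, had 33.7 and 45.5 CPM in the AGS libraries labelled NINJ1 and 13.5 in the AGS control (log2 change 1.56, SE 0.19, edgeR adjusted p = 3.35e-07), and 63.7 and 69.5 against 69.4 in HGC-27. CSTF2, a subunit of the cleavage complexes, had 36.0 and 38.4 CPM against 25.0 in AGS (log2 change 0.57, SE 0.17, edgeR adjusted p = 0.0174); leaving out AGS replicate 1 or 2 labelled NINJ1 gave adjusted p = 0.0888 and 0.214. SLBP, the stem-loop binding protein, had 94.6 and 84.8 CPM in the AGS libraries labelled NINJ1 and 83.0 in the AGS control (log2 change 0.11, adjusted p = 0.65). In HGC-27 SLBP had 57.6 and 56.6 CPM against 54.3 (log2 change 0.07, adjusted p = 0.683). In that line 4 of the 16 rose and 6 fell. After GC correction 2 rose and 7 fell, where 22.3% of all genes rose and 26.9% fell.

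Of 12 genes of general cleavage and polyadenylation, PAPOLA, a poly(A) polymerase, rose in AGS (469 and 452 CPM against 338, log2 change 0.45, SE 0.13, edgeR adjusted p = 0.0191). PABPN1, the nuclear poly(A) binding protein, fell there (15.1 and 12.8 CPM against 24.1, log2 change -0.78, SE 0.22, edgeR adjusted p = 0.0121). The PAPOLA call was lost without AGS replicate 1 or 2 labelled NINJ1 (adjusted p = 0.198 and 0.164) and that of PABPN1 without replicate 2 (0.143). In HGC-27 8 of the 12 fell and 4 rose, against 4 and 2 after GC correction, where 26.9% of all genes fell and 22.3% rose. Of 20 histone chaperones and deposition factors, RBBP4 alone passed in AGS (171 and 172 CPM against 224, log2 change -0.39, SE 0.13, edgeR adjusted p = 0.0317), a call lost without either AGS library labelled NINJ1 (adjusted p = 0.253 and 0.289). In HGC-27 9 of the 20 fell and 4 rose, against 17 and 1 after GC correction, with the same corrected shares of all genes. Of 5 tested variant genes outside the clusters and the comparators, H1FX (78.4 and 58.9 CPM against 132, log2 change -0.94, SE 0.19, edgeR adjusted p = 0.000495) and H2AFJ (15.9 and 15.9 CPM against 29.3, log2 change -0.88, SE 0.23, edgeR adjusted p = 0.00761) fell in AGS. With the GC correction H1FX no longer passed (log2 change -0.40, edgeR adjusted p = 0.0597). DESeq2 called neither H1FX (adjusted p = 0.296) nor H2AFJ (0.140), and neither CSTF2 (0.0812) nor PABPN1 (0.132). In HGC-27 2 of these 5 variant genes rose and 1 fell, against 3 and 0 after GC correction, with the same corrected shares.

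Of 24 S phase genes, 4 fell and 0 rose in AGS, with a list median log2 change of -0.27. They were the replication helicase subunits MCM5 (56.0 and 49.3 CPM against 96.1, log2 change -0.87, SE 0.15, edgeR adjusted p = 8.02e-05), MCM2 (log2 change -0.55, adjusted p = 0.0022) and MCM4 (log2 change -0.40, adjusted p = 0.0238), and the S phase transcription factor E2F1 (log2 change -0.60, adjusted p = 0.00416). Without AGS replicate 1 or 2 labelled NINJ1, MCM2 (adjusted p = 0.0637 and 0.0938) and MCM4 (0.189 and 0.314) no longer passed, and E2F1 no longer passed without replicate 2 (0.203) or with the GC correction (log2 change -0.29, adjusted p = 0.0686). In HGC-27 8 of the 24 rose and 12 fell, while after GC correction 18 fell and 0 rose, where 26.9% of all genes fell and 22.3% rose. Of 8 genes of cell cycle exit, 4 fell in AGS: TXNIP (log2 change -1.05, adjusted p = 1.93e-07), CDKN1B (-0.75, adjusted p = 0.000323), CDKN1C (-0.70, adjusted p = 0.000682) and GAS1 (-0.85, adjusted p = 0.0114), by edgeR. GAS1 no longer passed without AGS replicate 1 or 2 (0.0549 and 0.0958), nor CDKN1C without replicate 2 (0.0776), and DESeq2 did not call GAS1 (0.172). In HGC-27 3 of the 8 rose and 1 fell: CDKN1A (log2 change 2.70), CDKN2A (1.61) and BTG2 (1.37) rose and CDKN1C (-1.50) fell. With the GC correction 3 of the 8 rose and 3 fell in HGC-27, and log2 changes over the list ran from -3.86 to 1.24. Fibroblast and endothelial markers also moved in AGS: the 6 genes, mostly COL1A1, summed to 384 and 341 counts in the AGS libraries labelled NINJ1 and to 1005 in the AGS control, with PECAM1 at 7 and 7 counts against 49. In HGC-27 the 6 summed to 780 and 862 counts in the libraries labelled NINJ1 and to 248 in the control, with COL1A1 at 762 and 843 counts against 145, PECAM1 at 8 and 6 against 40 and DCN at 4 and 5 against 38. Log2 changes of the 4 tested genes of this list in HGC-27 ran from -3.14 to 2.37, and from -2.80 to 0.43 with the GC correction. All 4 tested epithelial markers were lower in HGC-27, and 1 of the 4 in AGS. The part of these markers and of the cycle genes in the histone values was not tested.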

How the data were processed

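RNA was sequenced from 6 libraries of polyadenylated RNA: 2 labelled NINJ1 and 1 control in each of AGS and HGC-27. Per the labels' protocols, libraries were made with a NEBNext Ultra kit. The submitters' processing notes name the build GRCh38 and the tools HTSeq 0.13.5 and HISAT2; annotation release, strand setting and the treatment of reads with several matches are not given in the sources used here. For each of 51103 genes the authors deposited counts of reads together with FPKM (scaled by gene length and library total), per the file headers. The length implied by the deposited FPKM equals the GENCODE 29 exon union in 67 of 67 histone rows with a count.

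Counts were tested with edgeR 4.0.16 (R 4.3.3): filterByExpr with a minimum count of 10, which kept 17617 genes and all 32 histone genes, TMM scaling, quasi-likelihood F tests, two-sided, Benjamini-Hochberg adjustment over all 17617 genes. A model with 1 mean per line and label gave the contrasts within lines, their difference and AGS against HGC-27; a model with line as an additive term gave the contrast over both lines. Each control is 1 library, assumed to vary like the libraries labelled NINJ1. SE is the log2 change divided by the square root of F. CPM in the text are scaled by TMM. The GC correction takes each gene's log2 CPM minus its mean over the libraries. Per library, a spline of these deviations on GC with 5 degrees of freedom is fitted. Stem-loops and poly(A) signals were searched in GENCODE 29 transcripts, motifs in RefSeq promoters. The script was tested on simulated data.

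Genes named: every member; those past the threshold with values in all libraries (the 10 with the smallest p where more passed); the 6 comparators; NINJ1; and per list up to 4 genes with the smallest p. SLBP, and KRT8, KRT18, CDH1, COL1A1, PECAM1, DCN, CDKN1A, CDKN2A, BTG2, HIST1H3E and HIST2H3D, were chosen after their values were seen. The members and lists were chosen with earlier results of these data known. Alternatives were DESeq2 1.42.0, other scalings, no filter, the lines in the titles, the 4 libraries of undisputed line, the GC correction, replicate number as a block and each library left out.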

Additional observations from a re-analysis of the deposited data

Results flagged for a closer look

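For 5 clustered genes and 5 comparators the change between libraries labelled NINJ1 and control differed between the lines by a test of that difference (AGS minus HGC-27, edgeR quasi-likelihood, adjusted over 17617 genes, where 23.9% of all genes were higher and 30.2% lower). Among clustered genes the differences in log2 change were 1.91 for HIST1H4I, -2.41 for HIST3H2A, -4.41 for HIST1H2AE, -2.28 for HIST1H2BJ and -1.07 for HIST1H2AG. Among comparators they were -4.24 for H2AFX, -1.65 for H1F0, 1.01 for H2AFV, 0.82 for H2AFZ and 0.77 for H3F3A. After the GC correction they were 1.81 for HIST1H4I, -0.85 for HIST3H2A (adjusted p = 0.152, not passing), -3.13 for HIST1H2AE, -2.11 for HIST1H2BJ and -1.17 for HIST1H2AG. For the comparators they were then -1.05 for H2AFX, -0.87 for H1F0, 0.56 for H2AFV, 0.99 for H2AFZ and 0.15 for H3F3A (adjusted p = 0.424, not passing). Every one of them rests on 1 control library per line, and the HGC-27 control held 2.31% of its counts in genes over 60% GC, against 11.3% in the AGS control.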

How the results depend on the processing

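With lines as in the titles, 0 clustered genes were lower in AGS, 1 was lower and 0 higher in HGC-27, the difference between the lines had 0 higher and 0 lower, and 0 were higher in AGS than in HGC-27; the spread within each group then includes both file-name lines. The cause of the other changes was not tested. The counts in this section show only how calls depend on the settings. Shares of all genes are not given beside them, so they do not set the members against other genes. DESeq2 called 3 lower in AGS, 4 lower and 1 higher in HGC-27, 2 lower in the difference, 8 higher in AGS than in HGC-27 and 3 lower over both lines. Total counts alone gave 1 higher in AGS and 4 lower in HGC-27, and DESeq2 size factors 2 higher in the difference. The GC correction gave 1 higher in AGS, 1 higher in HGC-27, 3 higher in the difference and 3 lower over both lines; with the replicate block as well, 0 were higher in HGC-27 and 3 higher in the difference.

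Leaving out 1 library gave 0 to 1 higher in AGS, 2 to 4 higher in HGC-27, 1 to 2 higher in the difference, 0 to 1 lower in AGS than in HGC-27, and 0 to 4 higher and 0 to 10 lower over both lines. These numbers of calls also stand without shares of all genes, so they do not set the members against other genes. The summed level in HGC-27 was 0.756 of control on FPKM, against 0.659 on counts, both per library total.

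In HGC-27 the direction turned with the GC correction, and with the block and GC correction, for HIST3H2A (-0.45 and -0.38), HIST2H2BC (0.000983 and 0.11), H2AFX (-0.15 and -0.0186) and H1F0 (-0.0238 and -0.0139). Between the lines it turned with the titles for HIST3H2A (-0.0414), HIST1H1C (-0.0565), HIST3H2BB (-0.0909), HIST1H4I (-0.19), H2AFV (-0.0380) and H3F3A (-0.0853). Of the other values of named genes, 817 kept their side of the threshold, 157 lost the call and 12 gained it. The replicate numbers do not pair the libraries (correlation over genes of replicate 1 minus replicate 2 between lines 0.00841). With the replicate number as a block, 10 clustered genes were lower in AGS, 9 lower and 3 higher in HGC-27, and 0 over both lines. These counts too stand without shares of all genes. Members with few counts, such as HIST2H2BF and HIST1H2BE, are limited by depth.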
